A study of Mus musculus with 6 samples.

Results

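The CC chemokine ligands are small secreted proteins named for a pair of adjacent cysteines near their amino end. They draw leukocytes along gradients by binding G protein-coupled receptors, and most receptors bind several ligands. Some are made by resting myeloid cells, others only after an inflammatory stimulus, and a further group by dendritic cells or by macrophages exposed to type 2 cytokines. In bone marrow, ligands of Ccr2 govern the release of monocytes, and Ccl3 is known as an inhibitor of stem cell proliferation.

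The CC ligand genes described here are the 10 rows of the deposited count table whose symbol is Ccl2, Ccl3, Ccl4, Ccl5, Ccl6, Ccl7, Ccl9, Ccl17, Ccl22 or Ccl24, of 24421 genes in all. All 10 had a row and all 10 passed the filter on low counts. RNA was sequenced from lineage-depleted femoral bone marrow of C57BL/6 mice labelled Dek -/-. Dek encodes a chromatin protein that leukocytes can also secrete. There were 3 libraries of cells treated with exogenous DEK protein and 3 of cells treated with vehicle, so the controls carry the Dek knockout too. The comparison asks which transcripts of such marrow differ after DEK is supplied from outside. The labels name neither the dose, the time of exposure, the age or sex of the mice nor whether libraries came from separate animals, so p-values measure the spread between these libraries, which may be technical.

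Libraries held 42496076, 49128378 and 48067741 counts with DEK and 48867857, 38060873 and 34875736 counts with vehicle. Markers of progenitors were present in both groups, and so were myeloid transcripts: Kit stood at 154 to 272 CPM with DEK and 158 to 305 CPM with vehicle, and Itgam, which encodes the myeloid antigen CD11b, at 685 to 1530 CPM with DEK and 654 to 1512 CPM with vehicle (CPM, counts scaled to a common library size). Dek itself was counted at 712 to 869 with DEK and 672 to 863 with vehicle, and a count over the whole gene does not check which part the knockout removed. Library 3 of each group differed from the others: summed neutrophil markers came to 65002 CPM in DEK library 3 and 67974 CPM in vehicle library 3, against 6270 and 8254 CPM in the other DEK libraries and 6511 and 7016 CPM in the other vehicle libraries. Vehicle library 1 stood apart in another way, with Rn45s, the ribosomal precursor RNA, at 48410 CPM in that library, against 1512 to 3206 CPM in the DEK libraries and 2601 and 3081 CPM in the other vehicle libraries. The labels state no pairing. Equal replicate numbers were taken as pairs because deviations from the group means correlated across genes, a check that rests mostly on the libraries numbered 3. DEK library 1 correlated with vehicle library 2 at 0.52, nearly as with vehicle library 1 at 0.55. Values are given within these assumed pairs, and with and without pair 3 where that matters. In bulk RNA, fewer cells of a type and less RNA per cell cannot be told apart.

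With libraries compared within pairs, 1 of the 10 ligands rose after DEK treatment and none fell (adjusted p under 0.05 over all genes, edgeR). Over all 13803 genes tested, 0.869% were called higher and 0.413% lower in that fit, 1.28% in all. The ligand that rose was Ccl22, at 1.69-fold. The inflammatory ligands Ccl3 and Ccl4 did not pass, with log2 fold changes of -0.19 and 0.38, and of the constitutive myeloid pair Ccl6 was lower in 3 of 3 pairs without passing, while Ccl9 had a log2 fold change of -0.03. The median log2 fold change within pairs was -0.06 over the 10 ligands and -0.00278 over all genes tested, and 4 ligands lay above 0 and 6 below. In the fit that takes no account of the replicate numbers, 0 ligands passed, as did 0% of all genes, and the ligands' adjusted p was 1 throughout (edgeR); DESeq2 without pairs called 58 genes and 0 ligands. At an unadjusted p under 0.05 there was 1 ligand in that fit, Ccl5, and 2.61% of all genes. Within pairs there were 3, namely Ccl22, Ccl24 and Ccl6, against 11.5% of all genes.

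**Figure D1:**
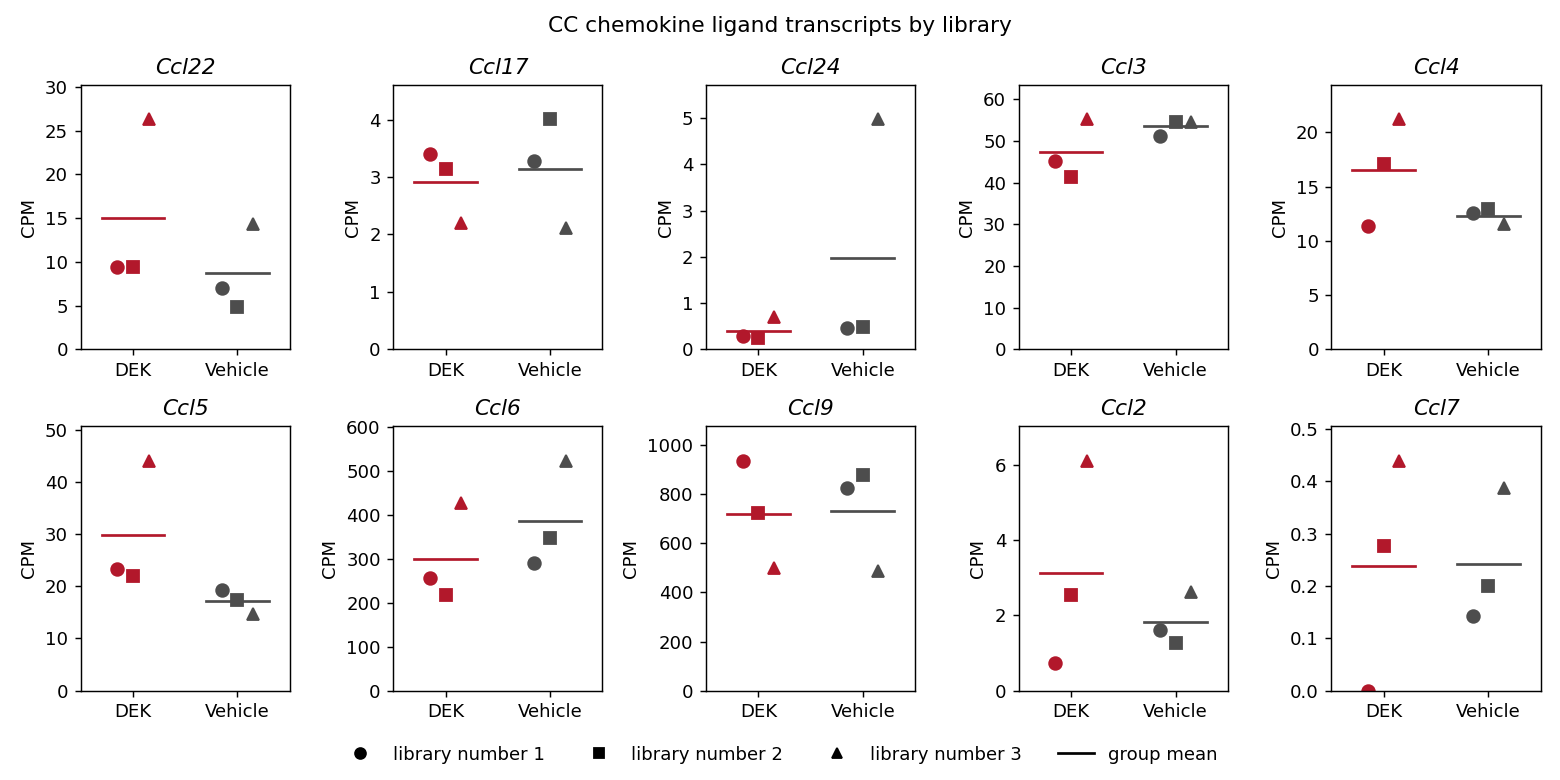
CPM of each CC ligand gene in each library, DEK left and vehicle right, on linear axes that start at 0; the marker shape gives the replicate number and the line the mean of 3 libraries. Ccl22 was highest in both libraries numbered 3 (26.3 CPM with DEK and 14.3 CPM with vehicle), and in each pair the DEK library lay above its vehicle library.

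Ccl22 and Ccl17 both signal through Ccr4 and are best known as products of dendritic cells and alternatively activated macrophages that attract T cells. Their genes lie 66.4 kb apart at the outer ends on chromosome 8 (mm10), with only Cx3cl1 between them in the table. Ccl22 (chromosome 8, 94745684 to 94751388, plus strand) had 423, 478 and 1136 counts in the DEK libraries and 344, 193 and 481 counts in the vehicle libraries. That corresponded to 9.44, 9.42 and 26.3 CPM with DEK, against 6.98, 4.83 and 14.3 CPM with vehicle. The groups overlapped because vehicle library 3 exceeded DEK libraries 1 and 2, yet every DEK library lay above the vehicle library of its number. The differences in pairs 1, 2 and 3 were 0.43, 0.96 and 0.87 on the log2 scale, and the fit within pairs gave a log2 fold change of 0.76 ± 0.15 (SE; adjusted p = 0.0266, edgeR). Without pair 3 it was 0.69 (adjusted p = 0.0117, edgeR), without pair 1, which holds the vehicle library high in Rn45s, it was 0.92 (adjusted p = 0.0219, edgeR), and without pair 2, where 0 genes in all were called, it was 0.67 (adjusted p = 0.658, edgeR). Without pair 3 and with no account taken of the replicate numbers, Ccl22 did not pass, at 0.67 (adjusted p = 0.217, edgeR). That setting was chosen after the data were seen.

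Ccl17 (chromosome 8, 94810453 to 94812036, plus strand) had 3.39, 3.13 and 2.20 CPM with DEK, against 3.29, 4.001 and 2.11 CPM with vehicle. Here the libraries numbered 3 were the lowest of each group, and the DEK libraries lay within the range of the vehicle libraries. The log2 fold change within pairs was -0.09 ± 0.21 (SE; adjusted p = 0.912, edgeR). Per gene length, the ratio of Ccl22 to Ccl17 was 0.790, 0.853 and 3.39 in the DEK libraries and 0.603, 0.342 and 1.92 in the vehicle libraries. The ratio was higher with DEK in 3 of 3 pairs, by 0.39, 1.32 and 0.82 on the log2 scale, and no test of the ratio was run. Cx3cl1, the gene between them, which encodes the ligand of the monocyte receptor Cx3cr1, had 1.45, 1.06 and 1.43 CPM with DEK and 0.912, 0.425 and 0.922 CPM with vehicle. Its groups did not overlap, but it did not pass (log2 fold change 0.85 ± 0.34, adjusted p = 0.336, edgeR within pairs).

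The promoters of this pair are shown because the neighbouring genes differed in their values. Each is the 250 bases before the start site from RefSeq on GRCm38.p6 (the mm10 assembly), at chr8:94745434-94745683 for Ccl22 and chr8:94810203-94810452 for Ccl17, both plus strand, 5′ to 3′, with capitals for a match to either of a pair of motifs, NF-kB-like (GGG and TTCC separated by 3 bases of any kind) or STAT6-like (TTC and GAA separated by 4 bases of any kind), searched on both strands.
Ccl22: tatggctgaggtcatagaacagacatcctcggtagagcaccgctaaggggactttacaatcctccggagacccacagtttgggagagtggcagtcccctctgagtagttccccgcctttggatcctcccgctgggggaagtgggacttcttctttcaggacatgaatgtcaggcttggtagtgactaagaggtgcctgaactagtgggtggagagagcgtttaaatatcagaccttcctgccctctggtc
Ccl17: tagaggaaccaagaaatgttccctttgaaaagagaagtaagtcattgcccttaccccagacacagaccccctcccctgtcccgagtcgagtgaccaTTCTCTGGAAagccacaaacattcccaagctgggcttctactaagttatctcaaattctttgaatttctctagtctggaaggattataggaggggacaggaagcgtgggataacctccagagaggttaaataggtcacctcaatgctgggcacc
The Ccl17 window held 1 STAT6-like match, starting 154 bases before the start site, and the Ccl22 window held neither motif. Of 32851 RefSeq promoter windows of this length, 5.85% held a STAT6-like and 4.65% an NF-kB-like match. A match is a description of letters and not evidence of binding.

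Dendritic cell markers were counted beside these ligands. Their summed level was 7021 to 9614 CPM with DEK and 5589 to 6326 CPM with vehicle, and 2 of 14 passed within pairs, both upward. Those that rose were H2-Eb1 and H2-Ab1, genes of class II antigen presentation that B cells and macrophages express as well. These 2 genes and Cd74, the invariant chain of class II, made up most of that sum, with 9035, 8476 and 6541 CPM with DEK and 5721, 5270.1 and 5214 CPM with vehicle. The other 11 markers summed to 579, 532 and 479.99 CPM with DEK and 605, 642 and 375 CPM with vehicle, and the groups overlapped. This split was chosen after the values were seen. Of the 11, 6 had a log2 fold change within pairs above 0 and 5 below, with a median of 0.03. None of the 11 passed. Itgax stood at 42.5, 33.3 and 34.6 CPM with DEK and 42.7, 37.8 and 35.5 CPM with vehicle. Zbtb46 stood at 2.08, 3.25 and 2.55 CPM with DEK and 3.02, 2.50 and 1.58 CPM with vehicle. Clec9a, Batf3, Siglech, Xcr1 and Bst2 had log2 fold changes within pairs of -0.33, -0.23, -0.08, 0.03 and 0.28. Those of Fscn1, Ccr7, Ciita and Cd209a were 0.45 ± 0.16, 0.39 ± 0.28, 0.25 ± 0.10 and -0.59 ± 0.20 (adjusted p = 0.271, 0.688, 0.328 and 0.366, edgeR within pairs). The groups did not overlap for Ciita. Fscn1 was highest in library 3 of both groups, at 32.5 CPM with DEK and 19.7 CPM with vehicle. None of the 14 markers was at 0 in these libraries. Monocyte markers summed to 8520, 8664 and 6722 CPM with DEK and 6972, 7501 and 5707 CPM with vehicle. The sum was higher with DEK in each pair, though the groups overlapped, and 4 of 10 markers rose and 0 fell. The part of either list in the Ccl22 result was not tested.

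The third ligand of this class, Ccl24 (chromosome 5, 135569937 to 135573043, minus strand), encodes eotaxin 2, which attracts eosinophils through Ccr3. It was scarce, at 13, 12 and 30 counts in the DEK libraries and 23, 19 and 167 counts in the vehicle libraries. Levels were 0.290, 0.236 and 0.694 CPM with DEK, against 0.466, 0.475 and 4.97 CPM with vehicle. Vehicle library 3 alone was high. The differences were -0.61, -0.88 and -2.76 in pairs 1, 2 and 3 on the log2 scale, lower in 3 of 3, and the fit within pairs gave -1.72 ± 0.48 (SE; adjusted p = 0.142, edgeR). Without pair 3 the log2 fold change was -0.83 (adjusted p = 0.621, edgeR), so its size rested on vehicle library 3. With no filter on low counts the within-pair fit called it lower (adjusted p = 0.0441, edgeR).

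Eosinophil and resident macrophage markers were counted beside Ccl24. Eosinophil markers summed to 11489, 8405 and 3633 CPM with DEK and 14717, 13358 and 5021 CPM with vehicle, lower with DEK in each pair. All 10 of them were lower in 3 of 3 pairs, with a median log2 fold change of -0.49, and 2 passed, both downward. Over all genes tested, 17.9% were lower in 3 of 3 pairs and 0.413% were called lower within pairs. Resident macrophage markers summed to 1212, 1200.3 and 1044 CPM with DEK and 1406, 1391 and 1064 CPM with vehicle, also lower in each pair. Of these 12 markers 4 were lower in 3 of 3 pairs, and 3 passed, all downward. Adgre1, Cd68 and Vcam1 made up most of the macrophage sum and did not pass (log2 fold changes -0.08, -0.04 and -0.19). Those that passed, C1qb, Mertk and C1qc, reached at most 17.1 CPM in any library and hardly entered the sum. All 3 were highest in library 3 of both groups, where the sum was lowest. No marker of either list was at 0 in any library. The part of these lists in the Ccl24 values was not tested. Mrc1, the mannose receptor gene of alternatively activated macrophages and a gene chosen after its values were seen, had 57.8, 31.4 and 14.6 CPM with DEK and 73.8, 81.0 and 113 CPM with vehicle. Its groups did not overlap, and it did not pass within pairs (log2 fold change -1.53 ± 0.75, adjusted p = 0.623, edgeR). Like Ccl24 it was highest in vehicle library 3. With DEK the 2 genes went opposite ways, as library 3 was the lowest of its group for Mrc1 and the highest for Ccl24. Of the alternative activation list, 14 of 16 were tested, 0 rose and 1 fell, the nuclear receptor gene Pparg, by 1.78-fold (adjusted p = 0.0195, edgeR within pairs). The list's median log2 fold change was -0.04, with 6 genes above 0 and 8 below. In 3 of 3 pairs 5 of the 14 were lower and 1 was higher. The higher one was Tgm2, which did not pass (log2 fold change 1.19 ± 0.53, adjusted p = 0.582, edgeR within pairs).

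Ccl3 and Ccl4 encode the macrophage inflammatory proteins 1 alpha and 1 beta, which activated myeloid cells and lymphocytes secrete. Ccl3 (chromosome 11, 83647843 to 83649378, minus strand) had 45.2, 41.4 and 55.2 CPM with DEK, against 51.3, 54.6 and 54.5 CPM with vehicle. The DEK libraries were lower in pairs 1 and 2 and level in pair 3, with differences of -0.18, -0.40 and 0.02 on the log2 scale. The log2 fold change within pairs was -0.19 ± 0.11 (SE; adjusted p = 0.539, edgeR), and over the settings tried it lay between -0.31 and -0.07.

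Ccl4 (chromosome 11, 83662584 to 83664683, plus strand) had 11.3, 17.1 and 21.2 CPM with DEK, against 12.6, 12.9 and 11.5 CPM with vehicle. DEK libraries 2 and 3 exceeded all vehicle libraries, and DEK library 1 was the lowest of the 6. The differences were -0.15, 0.40 and 0.88 in pairs 1, 2 and 3 on the log2 scale, and the fit gave 0.38 ± 0.19 (SE; adjusted p = 0.493, edgeR), or 0.13 without pair 3. Per gene length, Ccl3 exceeded Ccl4 by 3.33, 2.03 and 2.17 times in the DEK libraries and by 3.41, 3.53 and 3.95 times in the vehicle libraries. The ratios of the groups did not overlap. In the 3 pairs the ratio differed by -0.03, -0.80 and -0.86 on the log2 scale, so pair 1 showed almost none of it, and no test was run.

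Other genes that macrophages switch on together with Ccl3 and Ccl4 were set beside them. The list was chosen with earlier results of these data known, so its values beside those of all genes are description and not a test. Of 14 such genes, 5 passed within pairs, all upward, and the list's median log2 fold change was 0.73 against -0.00278 over all genes. In 11 of the 14 the DEK library was higher in 3 of 3 pairs, as it was for 16.3% of all genes. The remaining 3, Il6, Csf1 and Plek, had log2 fold changes of -0.31, -0.13 and 0.06 and did not pass. Ccl3 and Ccl4 thus lay within the range of the list. Il1b, the gene of interleukin 1 beta, rose 3.92-fold, and Nfkbia, Tnfaip3 and Nfkbiz, which encode regulators of NF-kB, rose 1.76-fold, 1.69-fold and 1.63-fold (adjusted p = 0.00293, 0.00356, 0.00827 and 0.0191, edgeR within pairs). Exons of Nfkbia overlap those of Mir1198, so its count is uncertain. Tnf, chosen after its values were seen, had 28.8, 47.8 and 74.3 CPM with DEK and 16.2, 10.8 and 27.6 CPM with vehicle. Its groups did not overlap and its log2 fold change was 1.46 ± 0.27, which did not pass (adjusted p = 0.148, edgeR within pairs). Whether Ccl3 differed from these genes in its response was not tested.

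**Figure D2:**
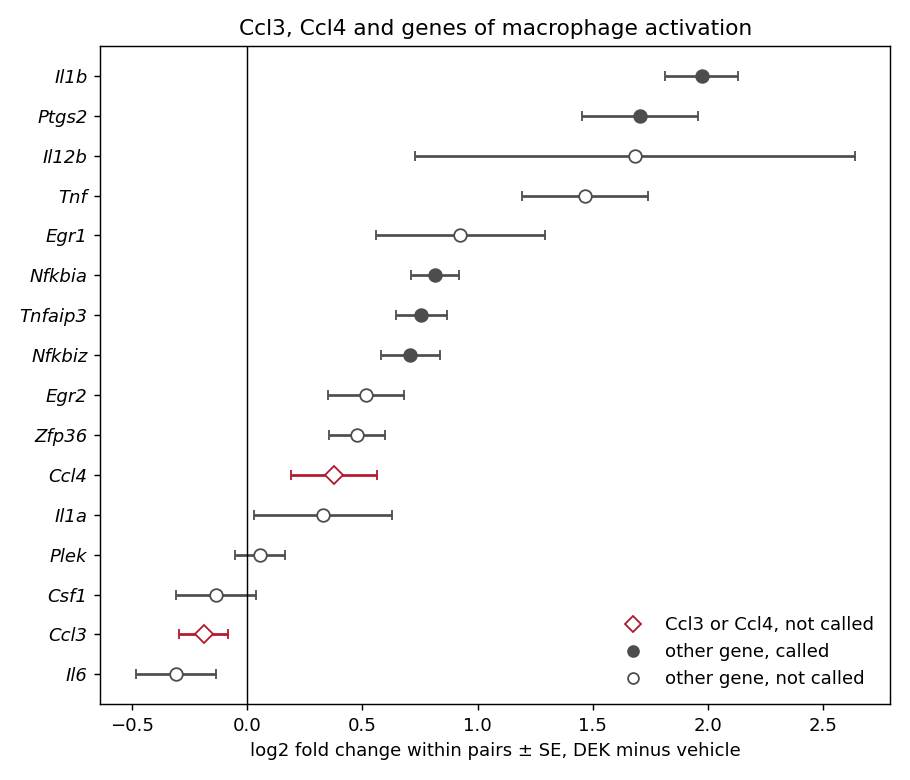
Log2 fold change within pairs (x axis, DEK minus vehicle, bars are the SE) for Ccl3 and Ccl4 (diamonds) and 14 genes of macrophage activation (circles), filled where the adjusted p was under 0.05. Ccl3 lay at -0.19 and Ccl4 at 0.38, within the range of the other genes, from -0.31 for Il6 to 1.97 for Il1b.

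Ccl5, or RANTES, is made by T and natural killer cells and by stimulated myeloid cells and binds Ccr1 and Ccr3. The gene (chromosome 11, 83525779 to 83530518, minus strand) had 23.2, 22.0 and 44.1 CPM with DEK, against 19.4, 17.4 and 14.7 CPM with vehicle. It was the 1 ligand of 10 whose groups did not overlap, while 3.77% of all genes had non-overlapping groups with DEK higher and 7.18% had them in either direction. Its differences were 0.26, 0.34 and 1.58 in pairs 1, 2 and 3 on the log2 scale, so DEK library 3 set its size. The log2 fold change was 0.72 ± 0.32 within pairs (SE; adjusted p = 0.530, edgeR) and 0.30 without pair 3 (adjusted p = 0.334, edgeR). Markers of T and natural killer cells summed to 164 to 208 CPM with DEK and 200.5 to 229 CPM with vehicle. Of these 12, 0 were called in either direction and none was at 0. Nkg7 alone made up most of each sum, at 110 to 142 CPM with DEK and 137 to 151 CPM with vehicle. Cd3e stood at 2.59 to 3.82 CPM with DEK and 2.29 to 3.25 CPM with vehicle. The part of these markers in the Ccl5 values was not tested.

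Ccl6 and Ccl9 are rodent ligands of Ccr1 that myeloid cells express without a stimulus, and they made up most of the CC ligand RNA. Per gene length (RPKM, which is CPM divided by gene length in kilobases), Ccl9 averaged 239 ± 72.9 with DEK and 243 ± 70.4 with vehicle, and Ccl6 averaged 209 ± 77.5 with DEK and 269 ± 84.7 with vehicle (SD, n = 3 each). Ranges of Ccl6 and Ccl9 overlapped in both groups. Together they took 78.9, 74.4 and 68.5% of the summed RPKM of the 10 ligands in the DEK libraries and 78.2, 79.9 and 79.8% in the vehicle libraries. DEK libraries 2 and 3 fell below all vehicle libraries in this share, and DEK library 1 lay within their range. Ccl3 followed, at 59.8 ± 8.98 RPKM with DEK and 67.7 ± 2.39 RPKM with vehicle. Next came Ccl5, at 56.1 ± 23.3 RPKM with DEK and 32.3 ± 4.41 RPKM with vehicle, and its range overlapped that of Ccl3 with DEK but not with vehicle. Ccl4 came next, at 25.1 ± 7.50 RPKM with DEK and 18.7 ± 1.11 RPKM with vehicle. The other ligands averaged 8.31 RPKM or less in both groups. In the order Ccl22, Ccl17, Ccl2, Ccl24 and Ccl7 with DEK, neighbouring ranges overlapped except those of Ccl2 and Ccl24, and in the order Ccl17, Ccl22, Ccl2, Ccl24 and Ccl7 with vehicle all neighbouring ranges overlapped.

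**Figure D3:**
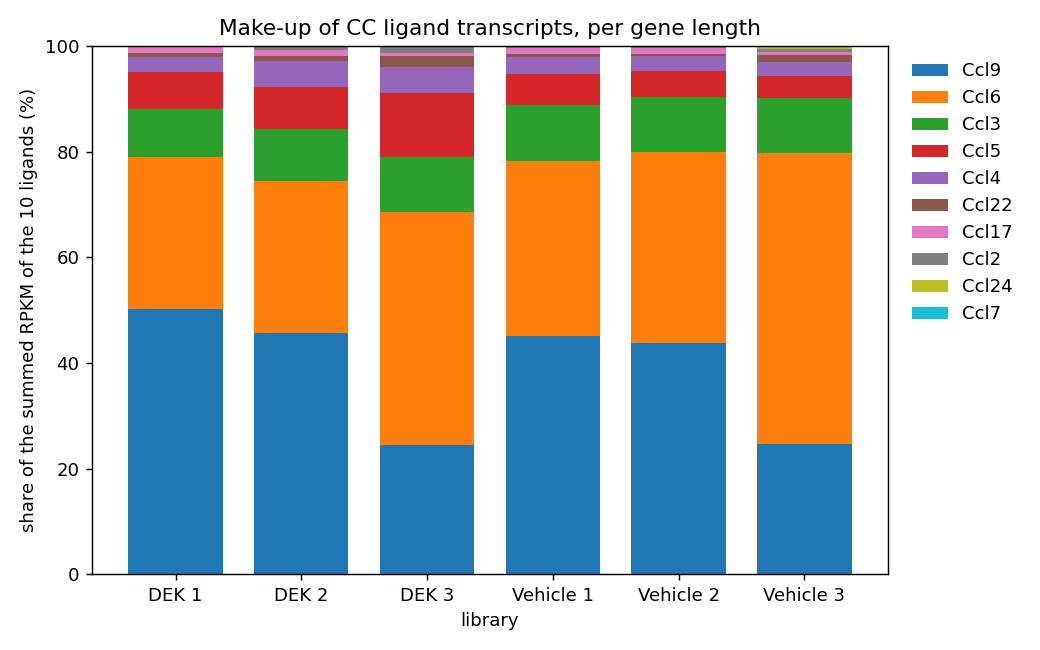
Share of the summed RPKM of the 10 ligands (y axis, percent) taken by each gene in each library, DEK libraries left. Ccl9 and Ccl6 together took 68.5 to 78.9% with DEK and 78.2 to 79.9% with vehicle, and Ccl6 exceeded Ccl9 in both libraries numbered 3.

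Ccl6 (chromosome 11, 83587886 to 83593087, minus strand) had 257, 218 and 427 CPM with DEK, against 290.0, 347 and 523 CPM with vehicle. Each DEK library lay below the vehicle library of its number, although DEK library 3 exceeded vehicle libraries 1 and 2. The differences were -0.18, -0.67 and -0.29 on the log2 scale. The fit within pairs gave -0.38 ± 0.11 (SE), which did not pass (adjusted p = 0.156, edgeR), and without pair 3 it passed at -0.42 (adjusted p = 0.0189, edgeR). Without pair 3 and with no account taken of the replicate numbers, Ccl6 did not pass, also at -0.42 (adjusted p = 0.239, edgeR). That setting was chosen after the data were seen. Lower values in 3 of 3 pairs were found for 2 ligands, Ccl6 and Ccl24, and for 17.9% of all genes; 4 ligands kept 1 direction in 3 of 3 pairs, against 34.2% of all genes.

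Ccl9 (chromosome 11, 83572917 to 83578636, minus strand) had 937, 722 and 498 CPM with DEK, against 826, 880.2 and 489 CPM with vehicle. It was lowest in the library numbered 3 of each group, and the groups overlapped throughout. Its log2 fold change within pairs was -0.03 ± 0.11 (SE; adjusted p = 0.958, edgeR). The ratio of Ccl6 to Ccl9 per gene length was 0.574, 0.631 and 1.79 in the DEK libraries and 0.736, 0.825 and 2.24 in the vehicle libraries. It was lower with DEK in every pair and by much the same amount, -0.36, -0.39 and -0.32 on the log2 scale, while between libraries of 1 group it varied far more. No test of the ratio was run.

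The promoters of this second pair of neighbours are shown for the same reason, at chr11:83593088-83593337 for Ccl6 and chr11:83578637-83578886 for Ccl9, both minus strand and written 5′ to 3′ on that strand, with the same meaning of capitals.
Ccl6: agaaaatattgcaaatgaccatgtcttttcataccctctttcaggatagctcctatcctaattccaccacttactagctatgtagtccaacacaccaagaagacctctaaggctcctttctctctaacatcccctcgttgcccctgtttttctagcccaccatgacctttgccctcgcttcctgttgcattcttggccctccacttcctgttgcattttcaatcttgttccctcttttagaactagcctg
Ccl9: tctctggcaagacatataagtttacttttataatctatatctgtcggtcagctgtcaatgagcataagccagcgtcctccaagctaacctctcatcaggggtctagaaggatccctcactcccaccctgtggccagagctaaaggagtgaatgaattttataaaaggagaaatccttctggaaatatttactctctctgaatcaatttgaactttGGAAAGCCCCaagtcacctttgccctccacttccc
The Ccl9 window held 1 NF-kB-like match on the opposite strand, beginning 35 bases before the start site, and the Ccl6 window held neither motif. A further pair of motifs was searched on both strands: GAGGAA (PU.1-like), found in the windows of Ccl3 and Ccl17 and in 23.3% of all windows, and TATAAA, found in that of Ccl9 and in 12.4% of all windows. Of the 10 ligands, 5 had a RefSeq promoter entry: Ccl3, Ccl6, Ccl9, Ccl17 and Ccl22. For Ccl3 alone, the bases after the listed start site were not found near the start of an annotated transcript of the gene. Its window and match are therefore uncertain.

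Ccl2 and Ccl7, neighbours on chromosome 11, encode monocyte chemoattractant proteins that bind Ccr2, and both were scarce. Ccl2 (82035577 to 82037452, plus strand) had 0.737, 2.54 and 6.11 CPM with DEK, against 1.602, 1.28 and 2.62 CPM with vehicle. DEK library 1 was the lowest of the 6 and DEK library 3 the highest. The differences were -1.07, 0.97 and 1.21 in pairs 1, 2 and 3 on the log2 scale, and the fit gave 0.47 ± 0.48 (SE; adjusted p = 0.771, edgeR within pairs). Ccl7 (82045712 to 82047523, plus strand) had 0, 14 and 19 counts with DEK and 7, 8 and 13 counts with vehicle. The 0 in DEK library 1, of 42496076 counts, allows a level of up to 0.0670 CPM (3 counts, counting error only). No difference in Ccl7 was detectable at this depth (log2 fold change -0.24 ± 0.72, adjusted p = 0.932, edgeR within pairs).

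**Figure D4:**
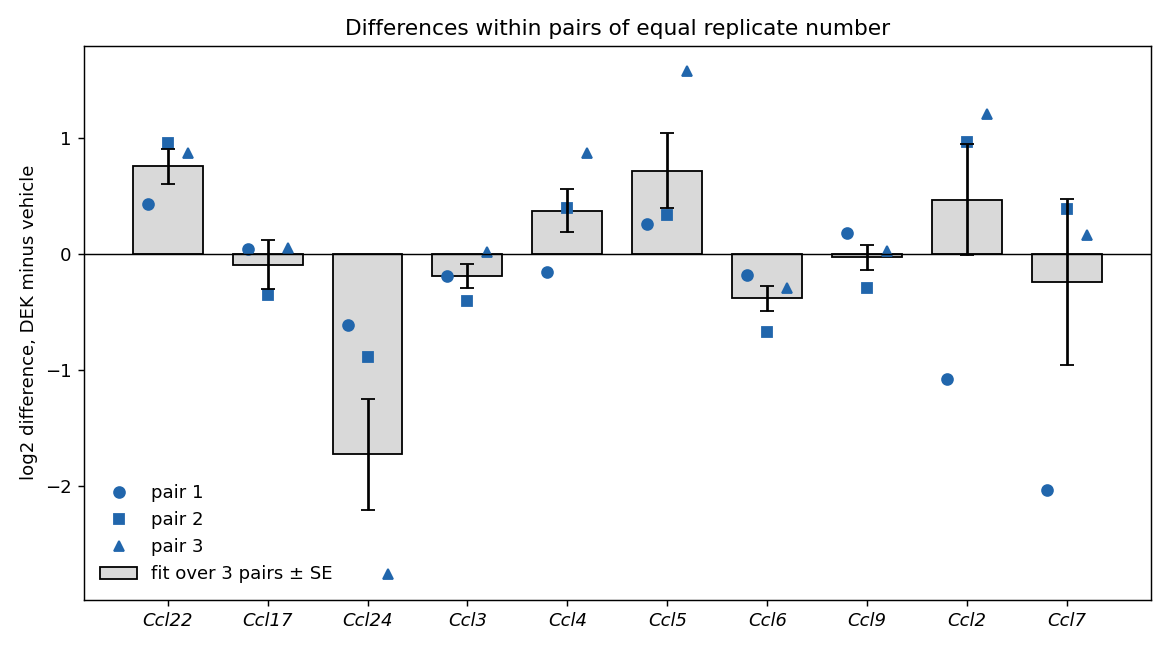
Log2 difference between the DEK and the vehicle library of each pair (points, y axis) for each ligand, with the fit over 3 pairs (bar) and its SE. All 3 points lay above 0 for Ccl22 and Ccl5 and below 0 for Ccl24 and Ccl6; pair 1 lay opposite to pairs 2 and 3 for Ccl2, Ccl4 and Ccl7.

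Neighbouring genes on chromosome 11 had differing values. From Ccl5 to Ccl4 a stretch of 139 kb on chromosome 11 holds Ccl5, Ccl9, Ccl6, Ccl3 and Ccl4, with log2 fold changes within pairs of 0.72, -0.03, -0.38, -0.19 and 0.38 in that order. Between Ccl2 and Ccl4, over 1629 kb, the table has 40 other genes, of which 28 were tested and 0 were called in either fit. Exons of the 10 ligands overlap those of no other gene in the table.

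The libraries numbered 3 moved the ligands in both directions. Relative to the mean of libraries 1 and 2 of the same group, 6 ligands were higher in library 3 of both groups, 2 were lower in both and 2 went opposite ways. Ccl22 was higher in library 3 by 1.47 with DEK and 1.30 with vehicle on the log2 scale, and Ccl6 by 0.85 with DEK and 0.72 with vehicle. For Ccl9 the difference was -0.72 with DEK and -0.80 with vehicle, and for Ccl17 it was -0.56 with DEK and -0.77 with vehicle. For Ccl5 it was 0.96 with DEK and -0.32 with vehicle. Sums of several marker lists differed in library 3 of both groups as well. Neutrophil markers were higher there, as given above. Eosinophil markers were lower, at 3633 CPM with DEK and 5021 CPM with vehicle. B cell markers stood at 119 CPM in library 3 and at 246 and 245 CPM in libraries 1 and 2 with DEK, against 98.0 CPM in library 3 and 249.6 and 286 CPM in libraries 1 and 2 with vehicle. Progenitor markers stood at 5629 CPM in library 3 and at 8478 and 8530.04 CPM in libraries 1 and 2 with DEK, against 7046 CPM in library 3 and 8554 and 7779 CPM in libraries 1 and 2 with vehicle. Mpo made up most of the progenitor sum. Cd34 stood at 95.3 CPM in library 3 and at 246 and 169 CPM in libraries 1 and 2 with DEK. With vehicle it stood at 89.8 CPM in library 3 and at 236 and 238 CPM in libraries 1 and 2. Kit and Flt3 were also lowest in library 3 of both groups, whereas Elane was highest there with vehicle and Ly6a with DEK. The part of these lists in the ligands' values was not tested.

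Genes with a pattern most like that of a ligand were found by the root mean square difference of log2 CPM, each centred on its mean over the 6 libraries, among 9128 other genes whose mean CPM reached 10. Nearest to Ccl22 were Ccrl2 at 0.122, Dusp1 at 0.147 and Bcl2l1 at 0.221, where the median gene stood at 0.793. Ccrl2 encodes a receptor-like protein that binds chemerin, Dusp1 a phosphatase of MAP kinases and Bcl2l1 an inhibitor of apoptosis. Nearest to Ccl6 were Prnp at 0.0805, Arhgap24 at 0.0839 and Rgs2 at 0.107, with a median of 0.479. Nearest to Ccl3 were Hhex at 0.0267, Fam76a at 0.0438 and Atp6v1g1 at 0.0448, with a median of 0.262. These genes were chosen on the same 6 libraries, so their differences between DEK and vehicle follow from the choice and are no separate evidence. In the fit within pairs over all genes, Dusp1 passed (log2 fold change 0.79, adjusted p = 0.0100, edgeR). The other genes named here did not pass.

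Receptors for these ligands were measured in the same libraries. Of 15 CC receptor and scavenger genes, 11 were tested and 0 passed within pairs in either direction, with a median log2 fold change of -0.02. Those with the smallest p were Ccr3, the eosinophil receptor of Ccl24, at -0.52 ± 0.12, and Ccrl2 at 0.84 ± 0.18 (adjusted p = 0.0928 and 0.0997, edgeR). Ccr3 had 68.2, 45.9 and 67.4 CPM with DEK and 93.0, 85.1 and 78.6 CPM with vehicle, and its groups did not overlap. Receptors of other ligands are named here for that role, with their values seen. Ccr2, the receptor of Ccl2 and Ccl7, was the most abundant by CPM, at 1160 to 1705 CPM with DEK and 1341 to 1626 CPM with vehicle. Ccr1, which binds Ccl3, Ccl5, Ccl6 and Ccl9, stood at 189 to 628 CPM with DEK and 238 to 479 CPM with vehicle. Ccr4, the receptor of Ccl17 and Ccl22, had 1, 5 and 1 counts with DEK and 8, 4 and 6 counts with vehicle and was not tested.

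Other chemokine ligands were followed from lists of the families. Of 14 further CC ligands, 7 had 0 counts in every library, 4 were tested and 0 passed. The smallest p belonged to Ccl19 and the next to Ccl28, whose log2 differences within pairs were 2.11 ± 0.64 for Ccl19 and -0.81 ± 0.48 for Ccl28 (SE; edgeR gave adjusted p = 0.178 for Ccl19 and 0.560 for Ccl28). Ccl19, a ligand of Ccr7, had 0.335 to 0.532 CPM with DEK and 0.0250 to 0.208 CPM with vehicle, without overlap, and is uncertain because the table places its exons both on chromosome 4 and on an unplaced scaffold. Of 17 CXC, XC and CX3C ligands, 10 were tested, 1 rose and 0 fell, with a median log2 fold change of 0.64. The one that rose was Cxcl16, a transmembrane ligand of Cxcr6, at 46.4, 54.0 and 64.4 CPM with DEK against 28.6, 22.2 and 29.3 CPM with vehicle. Its rise was 2.06-fold (adjusted p = 0.00293, edgeR within pairs), but exons of Cxcl16 and Zmynd15 overlap, which leaves its count uncertain.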

How the data were processed

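Polyadenylated RNA of 6 libraries was measured, 3 with DEK and 3 with vehicle. The deposited table holds raw read counts per gene; per the file headers, featureCounts 1.6.1 assigned reads to the exons of each gene on mm10, from 1 alignment per library and with no strand or overlap option, and the same table gives a length per gene among other columns, deposited as summed exon bases. Per the submitters' processing notes, Trim Galore, STAR, HTSeq and edgeR were used; the header names featureCounts where the notes name HTSeq. Per the labels' protocols, the library kit keeps strand.

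From the counts, 13803 of 24421 genes passed filterByExpr, library sizes were scaled by TMM, and edgeR 4.0.16 in R 4.3.3 gave a two-sided quasi-likelihood test of DEK against vehicle with p-values adjusted by Benjamini and Hochberg's method across these genes, threshold 0.05. CPM uses total counts times the TMM factor, RPKM divides CPM by gene length, and log2 CPM uses a prior count of 2. Limma 3.58.1 (voom) and DESeq2 1.42.0 served as alternatives. The main fit had no block. Equal replicate numbers were taken as pairs because the deviations of equal-numbered libraries from their group means correlated by 0.55, 0.56 and 0.80 across genes, each above 0.1; unequal numbers 1 and 2 correlated by 0.41 and 0.52, so the check rests mostly on the libraries numbered 3. Values within pairs come from the fit with the replicate number as a block.

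The ligands, lists and naming rule were chosen with earlier results of these data known. The rule named all 10 ligands, up to 4 called genes per pathway list or the 2 with the smallest p, and 3 genes most alike to Ccl3, Ccl6 and Ccl22.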

Additional observations from a re-analysis of the deposited data

How the results depend on the processing

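Without the block, edgeR called 0 genes and 0 ligands. The replicate block gave 177 genes (120 higher, 57 lower) and 1 ligand, Ccl22; with RLE size factors in addition 176 genes and 1 ligand, with DESeq2 347 and 1, with limma-voom 211 and 1, and with no filter on low counts 349 and 2, the second being Ccl24. DESeq2 without the block gave 58 genes and 0 ligands. Leaving out libraries or pairs, with and without the replicate block, gave 0 to 641 genes and 0 to 2 ligands; with the block, 181 genes and 1 ligand were called without pair 1, 0 and 0 without pair 2, and 641 and 2 without pair 3 (Ccl22 higher and Ccl6 lower). Leaving out both libraries numbered 3 without the block, a setting chosen after the data were seen, gave 168 genes and 0 ligands. The cause of these differences was not tested.

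Of the ligands, 6 kept their direction in every setting run, and 4 did not. Ccl7 stood at 0.000135 with RLE size factors, against -0.00264 in the main fit, and lay between -0.75 and 0.57 when libraries or pairs were left out. In the same settings Ccl2 lay between -0.16 and 1.24, Ccl9 between -0.26 and 0.18, and Ccl17 between -0.32 and 0.11 on the log2 scale. With the block, Ccl7 was at 0.31 without pair 1, and without pair 2 Ccl9 was at 0.12 and Ccl17 at 0.063. Ccl22 lay between 0.11 (without DEK library 3, no block) and 1.35, and between 0.67 and 0.92 in the fits with the block. Ccl7 could not be fitted without pair 3, where it failed the filter on low counts. Low counts, 0 to 19 per library for Ccl7 and 12 to 30 for Ccl24 in all but vehicle library 3, limit these genes.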

Other observations

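Ligands of Cxcr3, which carry no CC motif, shared the high value of Ccl5 in DEK library 3; they were chosen after their values were seen. Cxcl10 had 11.99, 25.2 and 107 CPM with DEK and 8.76, 4.63 and 4.05 CPM with vehicle, and did not pass (log2 fold change 2.49 ± 1.28, adjusted p = 0.640, edgeR within pairs). Cxcl9 had 0.514, 4.81 and 32.8 CPM with DEK and 3.26, 1.55 and 3.04 CPM with vehicle (adjusted p = 0.869, edgeR within pairs). Ccl8, a further CC ligand, had 1, 1 and 0 counts with DEK and 0, 0 and 14 counts with vehicle, so that vehicle library 3, where Ccl24 was highest, was also the library with most Ccl8.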
